A study of Mus musculus with 10 samples.

Results

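The 9 transcription factors described here are the core set that hepatocytes use to keep their identity. They were taken as a list of gene symbols: Hnf4a, Foxa1, Foxa2, Foxa3, Cebpa, Cebpb, Onecut1, Nr1i2 and Nr1i3. Each symbol was matched to an NCBI Gene number, and all 9 were found among the 27179 genes of the count table. All 9 also passed the filter on low counts, which left 15226 genes for testing. The study compared whole-liver RNA of Lpcat3f/f Albumin-Cre mice (LKO) with that of Lpcat3f/f mice without Cre (control). All mice were C57BL/6 males, all carried floxed Lpcat3 alleles, and all ate a NASH diet, which produces steatohepatitis, for 12 weeks. There were 5 libraries a group, each taken here as the liver of 1 mouse. Their age is not given in the labels. Cre was driven by the albumin promoter, which is active in hepatocytes. Which other liver cells keep Lpcat3 cannot be read from whole-liver RNA. The gene encodes an acyltransferase that places polyunsaturated fatty acids into membrane phospholipids. The comparison asks how its loss in hepatocytes alters the liver with steatohepatitis, and here what the identity factors did.

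Hepatocyte identity rests on a network of factors that bind one another's promoters and enhancers as well as the genes of plasma proteins, bile acid synthesis and drug metabolism. HNF4A is a nuclear receptor at its centre. The FOXA proteins open closed chromatin in developing liver, C/EBP proteins set metabolic and acute phase genes, and HNF6, the product of Onecut1, acts in liver and bile duct development. PXR (Nr1i2) and CAR (Nr1i3) are nuclear receptors that sense drugs and bile acids and induce cytochrome P450 genes.

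Libraries held 26914124 counts (control 4) to 46727182 counts (control 5). The smallest count of any of the 9 factors was 425, for Nr1i3 in LKO 3, where counting error is 4.85%. Values below are CPM (counts scaled to library size) after TMM scaling of the libraries. Differences were tested with edgeR's quasi-likelihood test over all 15226 genes, with Benjamini-Hochberg adjustment and a threshold of 0.05. Lpcat3, the deleted gene, had 25.5 to 38.5 CPM in LKO livers, against 94.1 to 123.9 CPM in control livers (edgeR adjusted p = 0.000151). Control 4 and LKO 3 lay at the ends of their groups in the sums of macrophage and hepatocyte markers. The summed level of 14 recruited macrophage markers ran from 206 to 545 CPM in LKO, highest in LKO 3, and from 76.0 to 356 CPM in control, highest in control 4. That of 26 hepatocyte markers ran from 75483 CPM in LKO 3 to 105694 CPM in LKO and from 85589 CPM in control 4 to 132070 CPM in control. LKO 5 lay next to LKO 3, with a hepatocyte marker sum of 81956 CPM. The sum of 9 cholangiocyte markers was 480 CPM in LKO 3, 288 CPM in LKO 5 and 49.6 to 78.4 CPM in the other LKO libraries. In the macrophage sum LKO 5 (314 CPM) lay below LKO 2 (337 CPM). In whole-liver RNA, fewer cells of a type and less RNA per cell cannot be told apart. Each title also holds a code that begins with A54, A55 or A67, followed by letters that differ between its samples. The meaning of neither part is stated, and the title code here is the first part alone. Only A54 occurs in both groups, in LKO 1, LKO 2 and control 1. LKO 3 to 5 carry A67 and control 2 to 5 carry A55, so among these the code and the genotype cannot be told apart.

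Of the 9 factors, 0 passed the edgeR test at an adjusted p under 0.05, where 0.0657% of all genes tested passed, 0.0263% higher and 0.0394% lower in LKO. At an unadjusted p under 0.05 the count was 1 of 9, Foxa3, against 22.3% of all genes. DESeq2 also called 0 of 9, where it called 7.79% of all genes, with 2 of 9 at an unadjusted p under 0.05, where 25.1% of all genes were. Limma voom with quality weights called 1 of 9, Foxa3, where it called 16.2% of all genes, and had 3 of 9 at an unadjusted p under 0.05, where 33.2% of all genes were. The median log2 fold change of the 9 was -0.23, LKO over control, beside a median of -0.00 for all genes tested. It was negative for 6 factors and positive for 3. A p above the threshold does not show that a factor stayed at its level, and the intervals below give the sizes these data allow.

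**Figure D1:**
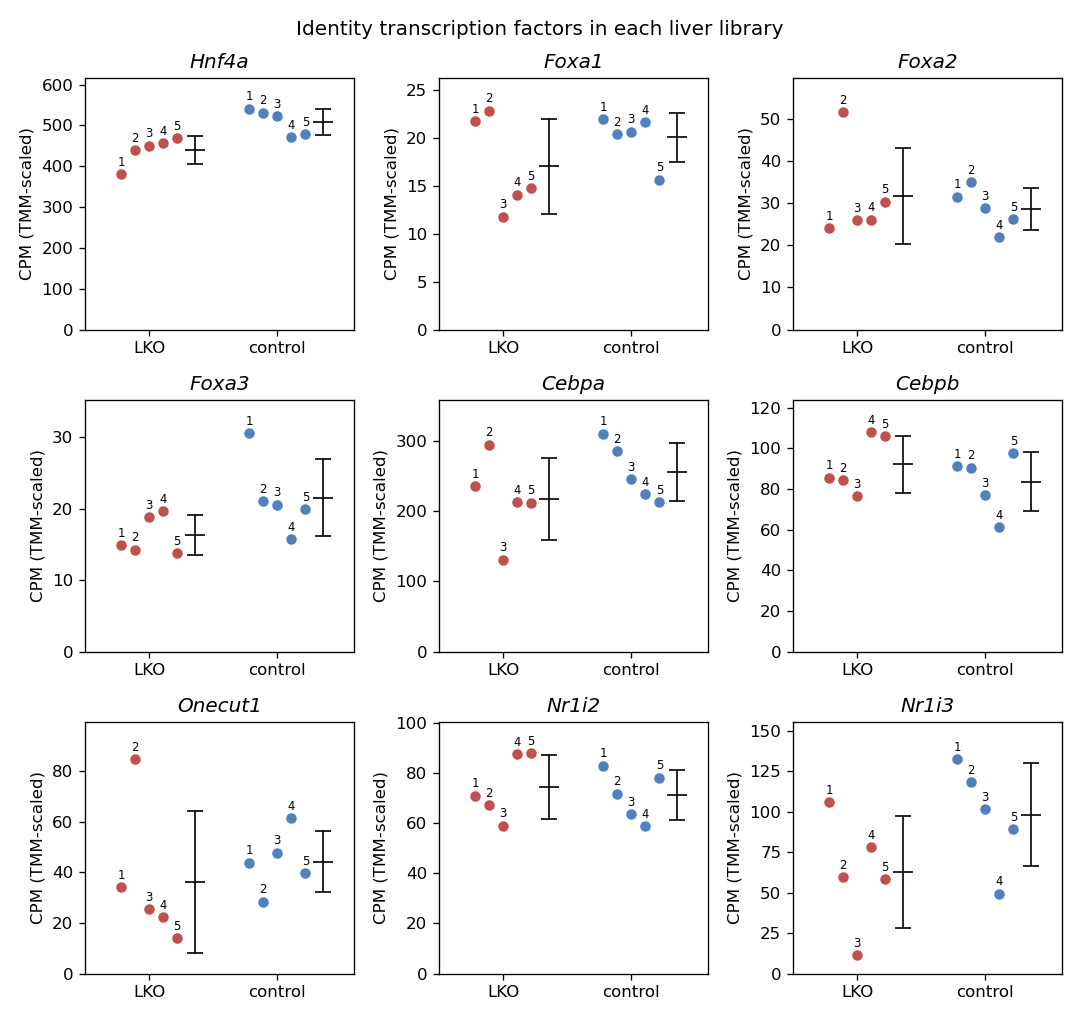
Level of each factor in TMM-scaled CPM (vertical axis, from 0) in the 5 LKO libraries (red, left) and 5 control libraries (blue, right). Points are libraries with their replicate number, and bars beside them are the mean and SD. Hnf4a ran from 381 to 469 CPM in LKO and from 472 to 541 CPM in control, and the other 8 factors overlapped between groups. With hepatocyte marker scaling Hnf4a overlaps and turns higher in LKO.

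Hnf4a (NCBI Gene 15378) encodes the nuclear receptor on which most of the network depends. It had 381, 440, 450, 456 and 469 CPM in the LKO livers, against 541, 531, 522, 472 and 479 CPM in the control livers. Every LKO library lay below every control library, but the highest LKO value and the lowest control value were close. The mean was 439 ± 34.3 CPM in LKO and 509 ± 31.6 CPM in control (SD, n = 5 each). Its log2 fold change was -0.21 (SE 0.10; 95% interval -0.43 to 0.00; edgeR adjusted p = 0.224), which is 0.863 times the control level. The ranges of the groups were apart for 1 of the 9 factors, Hnf4a, and for 3.95% of all genes tested, 2.23% being lower in LKO. With upper quartile scaling, total counts, no filter on low counts or scaling on hepatocyte markers, its ranges overlapped. With total counts its log2 fold change was 0.04, and with scaling on the hepatocyte markers it was 0.14, so the direction turned under both. These scalings moved the median of all genes to 0.24 and 0.33, and relative to that median Hnf4a stood at -0.20 and -0.19. Within A54 it had 381 and 440 CPM in LKO and 541 CPM in control, and without the A54 samples its log2 fold change was -0.13.

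The RefSeq table of GRCm38.p6 holds 2 promoter windows for Hnf4a, and the counts cannot tell their transcripts apart. As background, the gene has an upstream promoter used in fetal liver and pancreas and a downstream one that dominates in adult liver. Both windows run from 250 bases before to 50 bases after the start, on the plus strand, and capitals mark the motif ATTGAT or its reverse complement, a core of HNF6 sites. The upstream window lies at chr2:163506607-163506906 and the downstream one at chr2:163546905-163547204. They are shown because the windows of this gene differ in whether they hold these letters.
Hnf4a upstream window: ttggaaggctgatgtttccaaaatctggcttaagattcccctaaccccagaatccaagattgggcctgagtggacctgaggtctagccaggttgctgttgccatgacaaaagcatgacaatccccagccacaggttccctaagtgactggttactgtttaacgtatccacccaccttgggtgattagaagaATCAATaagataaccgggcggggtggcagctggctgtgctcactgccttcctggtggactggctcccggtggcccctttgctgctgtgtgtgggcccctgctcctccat
Hnf4a downstream window: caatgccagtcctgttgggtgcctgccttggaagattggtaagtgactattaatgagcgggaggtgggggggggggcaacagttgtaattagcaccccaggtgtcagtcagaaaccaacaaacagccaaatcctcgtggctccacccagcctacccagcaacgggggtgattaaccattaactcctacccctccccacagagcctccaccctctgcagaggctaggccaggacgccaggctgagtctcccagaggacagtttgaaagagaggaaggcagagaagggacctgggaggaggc
ATTGAT occurred once in the upstream window and 0 times in the downstream window, and in 7.54% of 32851 promoter windows of that length. The letters CAAAGTCCA of HNF4 sites occurred in neither, nor in any window of the other factors, and in 0.475% of all windows.

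The 3 FOXA genes encode related forkhead proteins that share a DNA-binding domain. Foxa1 (NCBI Gene 15375) had 21.7, 22.9, 11.8, 14.1 and 14.8 CPM in LKO, against 21.9, 20.4, 20.7, 21.6 and 15.6 CPM in control. LKO 3, LKO 4 and LKO 5 lay below every control library, while LKO 1 and LKO 2 lay at the level of the highest controls. The 3 low libraries carry the code A67 and the other 2 carry A54, so the split within LKO follows the title code, and within A54 the log2 difference was 0.02. Without the A54 samples the log2 fold change was -0.53 (edgeR adjusted p = 0.152, in a range of 0.152 to 0.989 over 24 alternatives) and the groups were apart, as were 16% of all genes. Scaling on the hepatocyte markers gave 0.06, which is -0.28 relative to the all-gene median under that scaling. Over all libraries, with TMM scaling, Foxa1 averaged 17.0 ± 4.93 CPM in LKO and 20.1 ± 2.55 CPM in control, a log2 fold change of -0.23 (95% interval -0.63 to 0.17; edgeR adjusted p = 0.459).

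Foxa2 (NCBI Gene 15376) had 24.1, 51.6, 26.0, 26.0 and 30.3 CPM in LKO, against 31.5, 34.9, 28.8, 21.99 and 26.1 CPM in control. LKO 2 stood well above the other 9 libraries, which overlapped throughout. The log2 fold change was 0.14 (95% interval -0.32 to 0.60; edgeR adjusted p = 0.706). Without LKO 2 it was -0.11, so the sign rested on that library.

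Foxa3 (NCBI Gene 15377) encodes a FOXA protein that acts on glucose metabolism genes of adult liver. It had 14.9, 14.3, 18.8, 19.7 and 13.7 CPM in LKO. In control it had 30.5, 21.04, 20.5, 15.7 and 19.9 CPM. Every LKO library lay below 4 of the 5 controls, and control 4 lay inside the LKO range. The mean was 16.3 ± 2.76 CPM in LKO and 21.5 ± 5.44 CPM in control. Among the 9 factors it had the smallest p, with a log2 fold change of -0.40 (SE 0.17; 95% interval -0.78 to -0.03; edgeR adjusted p = 0.2), or 0.756 times the control level. Limma voom called it at a log2 fold change of -0.52 (adjusted p = 0.0331), and adjusted p-values ran from 0.0331 to 0.931 over 24 alternatives. Without control 4 the groups no longer overlapped, but 19% of all genes were then apart. Without control 1 the log2 fold change was -0.25. Within A54 it had 14.9 and 14.3 CPM in LKO and 30.5 CPM in control, while without the A54 samples the log2 fold change was -0.15 (edgeR adjusted p = 0.604). It was -0.13 with total counts and -0.02 with hepatocyte marker scaling, or -0.37 and -0.36 relative to the all-gene median under each.

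C/EBPalpha drives metabolic genes of resting hepatocytes, and C/EBPbeta is induced in inflammation and regeneration and is also made by macrophages. Cebpa (NCBI Gene 12606) had 236, 295, 131, 213 and 212 CPM in LKO, against 311, 286, 246, 225 and 212 CPM in control. LKO 3 was the lowest of all 10 libraries, and the other 4 LKO libraries lay inside the control range or, for LKO 5, just under its lower end. The mean was 217 ± 58.8 CPM in LKO and 256 ± 41.4 CPM in control, a log2 fold change of -0.24 (95% interval -0.66 to 0.18; edgeR adjusted p = 0.478). Without LKO 3 it was -0.10. Scaling on the hepatocyte markers gave 0.08, which is -0.25 relative to the all-gene median under that scaling.

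Cebpb (NCBI Gene 12608) had 85.5, 84.3, 76.6, 108 and 106 CPM in LKO, against 91.3, 90.5, 77.0, 61.2 and 97.6 CPM in control. The groups overlapped, with the highest values in LKO 4 and LKO 5 and the lowest in control 4. The log2 fold change was 0.14 (95% interval -0.17 to 0.45; edgeR adjusted p = 0.572). It ran from 0.05 to 0.20 over 10 fits that each left out 1 library. With the title code as a covariate, where only A54 (2 LKO libraries and 1 control) informs the genotype difference, it turned to -0.10. With scaling on the hepatocyte markers it was 0.51, or 0.17 relative to the all-gene median. The groups did not overlap under that scaling, as for 2.7% of all genes. Without the A54 samples it was 0.24. Control 4, which held the highest sum of macrophage markers among the controls, had the least Cebpb, and the part of those cells in Cebpb levels was not tested.

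The balance of the pair can be read within a library, where scaling plays no part. The log2 ratio of Cebpb to Cebpa counts averaged -1.20 ± 0.42 in LKO and -1.62 ± 0.29 in control (SD, n = 5 each). In LKO it was -1.46, -1.81, -0.77, -0.98 and -1.001, and in control -1.77, -1.66, -1.67, -1.87 and -1.12. Cebpa was thus the more counted gene in each of the 10 livers, and the ratio was highest in the A67 libraries of LKO and in control 5. The ranges overlapped.

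Onecut1 (NCBI Gene 15379) encodes HNF6, which binds the promoters of Foxa2 and Hnf4a in liver. It had 34.2, 84.9, 25.6, 22.3 and 14.1 CPM in LKO, against 43.9, 28.5, 47.8, 61.3 and 39.6 CPM in control. The LKO group held both the lowest and the highest of the 10 values. LKO 3, LKO 4 and LKO 5 lay below every control, and LKO 2 lay above every control. The mean was 36.2 ± 28.2 CPM in LKO and 44.2 ± 12.0 CPM in control, a log2 fold change of -0.29 (95% interval -1.20 to 0.62; edgeR adjusted p = 0.698). Without LKO 2 it was -0.88 (edgeR adjusted p = 0.167, in a range of 0.145 to 0.963 over 24 alternatives). Within A54 Onecut1 had 34.2 and 84.9 CPM in LKO and 43.9 CPM in control. A fit with the title code as covariate gave 0.44, which rests on these A54 libraries alone. Without the A54 samples the log2 fold change was -1.11 (edgeR adjusted p = 0.145), with groups apart, as were 16% of all genes.

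LKO 2 was the highest library for Foxa2, Onecut1 and Foxa1. It stood well above the other libraries for Foxa2 and Onecut1 only. Its 22.9 CPM of Foxa1 lay close to control 1 (21.9 CPM) and LKO 1 (21.7 CPM). The most upstream promoter window that the RefSeq table lists for Foxa2, at chr2:148046920-148047219 of GRCm38.p6 on the minus strand, is shown because it carries the HNF6 letters ATTGAT, in capitals.
Foxa2 window: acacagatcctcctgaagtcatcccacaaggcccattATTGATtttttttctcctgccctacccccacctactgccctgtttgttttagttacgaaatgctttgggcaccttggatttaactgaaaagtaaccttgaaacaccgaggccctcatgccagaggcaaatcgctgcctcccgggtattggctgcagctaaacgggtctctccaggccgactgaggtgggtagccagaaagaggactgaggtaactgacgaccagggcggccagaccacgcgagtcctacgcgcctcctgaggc
That match lay 213 bases before the start, and the other 2 windows of Foxa2 held 0 of the motifs searched. Letters of FOXA sites were found once in the Foxa1 window (TGTTTAC, in 3.65% of all windows) and at 2 places in the Nr1i2 window (TGTTTGC, in 5.07%). The windows of Foxa3, Cebpa, Cebpb, Onecut1 and Nr1i3 held none of the motifs searched, which were these, CAAAGTCCA, TTGCNNAA for C/EBP, ATCGAT for HNF6 and, for PXR and CAR, the DR4 element, AGTTCA repeated after a gap of 4 bases, on both strands. No match overlapped that of another motif. TTGCNNAA occurs in 10.8% of all windows, ATCGAT in 0.925% and the DR4 element in 0.0122%. A match in letters is not evidence of binding.

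Nr1i2 (NCBI Gene 18171) encodes PXR, the receptor that induces Cyp3a genes. It had 70.9, 67.2, 59.0, 87.4 and 88.0 CPM in LKO, against 82.9, 71.8, 63.6, 58.8 and 78.2 CPM in control. The ranges overlapped almost wholly. Its mean was 74.5 ± 12.8 CPM in LKO and 71.1 ± 9.96 CPM in control, with a log2 fold change of 0.07 (95% interval -0.22 to 0.36; edgeR adjusted p = 0.781). The interval runs from 0.856 to 1.28 times the control level. Without LKO 4 the log2 fold change was -0.00, and without the A54 samples it was 0.19. With the title code as a covariate it was -0.26, which rests on A54 alone (2 LKO libraries and 1 control). Adjusted p-values ran from 0.153 to 0.997 over 24 alternatives.

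Nr1i3 (NCBI Gene 12355) encodes CAR, which induces Cyp2b and Cyp2c genes. It had 105.6, 59.4, 11.4, 78.0 and 58.3 CPM in LKO, against 132, 118, 102, 49.3 and 89.4 CPM in control. LKO 3 was lowest by a wide margin, and control 4, the lowest control, lay below 4 of the 5 LKO libraries. The mean was 62.6 ± 34.4 CPM in LKO and 98.2 ± 31.8 CPM in control. With TMM scaling the log2 fold change of -0.65 was the largest in size among the 9 factors, yet its 95% interval ran from -1.64 to 0.34 (edgeR adjusted p = 0.399). Without LKO 3 it was -0.39, and its sign was negative in all 24 alternatives. Within A54 Nr1i3 had 105.6 and 59.4 CPM in LKO and 132 CPM in control. In LKO 3 and control 4, the lowest libraries of their groups for Nr1i3, the hepatocyte marker sums were also lowest and the macrophage marker sums highest of the group. The part of cell makeup in this was not tested.

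Nr1i3 overlaps Tomm40l, a gene of the mitochondrial outer membrane translocase family, in the annotation. Tomm40l had 148, 81.6, 20.4, 110.2 and 84.7 CPM in LKO, against 189, 175, 157, 72.5 and 131 CPM in control. The ratio of Tomm40l to Nr1i3 lay between 1.37 and 1.55 in all libraries except LKO 3, where it was 1.79. The libraries were made with a stranded kit, but the sources used here give neither the strand setting nor the treatment of overlaps in counting. Reads of one gene may therefore have been counted for the other, and the Nr1i3 values are uncertain to that extent. Overlapping genes of lower abundance were listed for Hnf4a and Foxa1. Hnf4aos, antisense to Hnf4a, had 0.535 to 3.08 CPM in LKO and 1.03 to 5.47 CPM in control, and Ttc6, which overlaps Foxa1, had 1.79 to 2.92 CPM in LKO and 2.45 to 3.64 CPM in control.

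Per kilobase of exon, on the union of GENCODE M21 exons, Hnf4a was the most abundant of the 9 factors, with a mean of 91.0 CPM per kb in LKO and 105 CPM per kb in control. Cebpa followed with 82.4 CPM per kb in LKO and 97.0 CPM per kb in control. Cebpb had 61.2 CPM per kb in LKO and 55.5 CPM per kb in control. Nr1i2 had 29.2 CPM per kb in LKO and 27.8 CPM per kb in control, and Nr1i3 had 14.2 CPM per kb in LKO and 22.2 CPM per kb in control. The FOXA genes and Onecut1 were the least abundant, between 5.12 CPM per kb (Foxa1) and 13.3 CPM per kb (Foxa2) in LKO and between 6.03 and 12.1 CPM per kb in control.

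The factors also differed in how far single livers spread. In LKO the coefficient of variation was lowest for Hnf4a, at 7.80%, and highest for Onecut1, at 77.8%, with Nr1i3 at 55.1%. In control it ran from 6.21% for Hnf4a to 32.4% for Nr1i3. LKO 3 lay below the control mean in 9 of 9 factors and control 4 in 7 of 9. LKO 2 lay below it in 4 and was the highest of the 10 libraries for 3 factors, while control 1 was the highest for 4 (Hnf4a, Foxa3, Cebpa and Nr1i3). Control 5, which was neither the highest nor the lowest of the 10 libraries for any factor, lay below the control mean in 7 of 9.

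**Figure D2:**
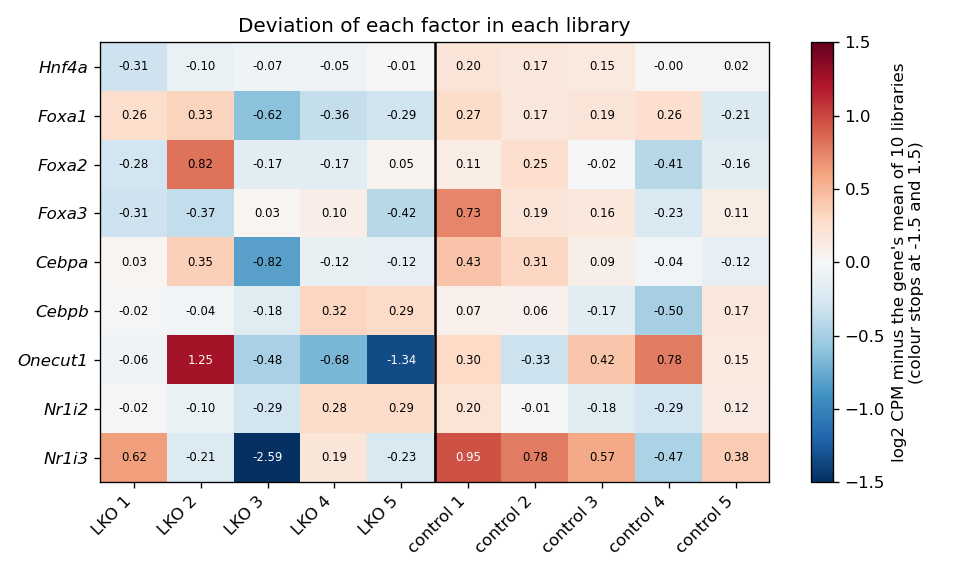
Deviation of each factor (rows) in each library (columns, LKO left of the line and control right), as log2 CPM minus the mean of that gene over 10 libraries. Red is above the mean, blue below, and the colour stops at -1.5 and 1.5. Nr1i3 in LKO 3 (-2.59) and Onecut1 in LKO 2 (1.25) and LKO 5 (-1.34) are the largest deviations.

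Ratios between relatives overlapped for each of 4 pairs examined. The log2 ratio of Foxa1 to Foxa2 counts averaged -0.88 ± 0.42 in LKO and -0.51 ± 0.30 in control. LKO 1 stood at -0.15, above the other LKO libraries (-1.18 to -0.89). The log2 ratio of Foxa2 to Foxa3 averaged 0.91 ± 0.60 in LKO and 0.43 ± 0.25 in control, and that of Nr1i2 to Nr1i3 averaged 0.55 ± 1.11 in LKO and -0.40 ± 0.43 in control. LKO 3 had the highest Nr1i2 to Nr1i3 ratio, at 2.38.

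By root mean square difference of log2 CPM, each gene centred on its own mean over 10 libraries, the genes most like each factor were also found. Close to Hnf4a were Sertad3 and Styx, at differences of 0.06 and 0.08, where Hnf4a itself deviated by 0.14. For Foxa1 they were Plekhg6, Ttc7 and Vwce (0.08 to 0.12), for Foxa2 Snora73a and Ttc30a2 (0.20 and 0.21) and for Foxa3 Zbtb5, Ahsg and Polb (0.15 to 0.17). Cebpa was closest to Gckr, Fxyd1 and Il15ra (0.10 to 0.11), and Cebpb to Ubb, Ubb-ps and Polr2c (0.10 to 0.11). Nr1i2 was closest to Wdr53, Polr2c and Tec (0.09 to 0.10). Tomm40l was by far the closest to Nr1i3, at 0.10 beside a deviation of 0.97 in Nr1i3 itself, followed by Slc15a5 and Mup22 (0.23 each). Ubb-ps is a pseudogene and Mup22 is one of a near-identical family, so their counts are uncertain. Onecut1 had no close match, and Hhex, the nearest, differed by 0.43, ahead of Efr3b (0.44) and Nrep (0.45).

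**Figure D3:**
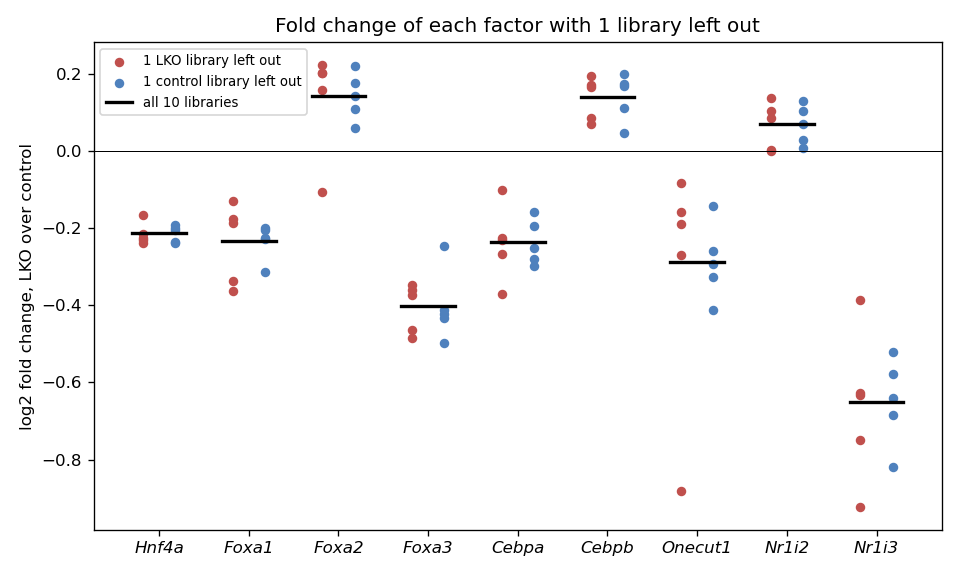
Log2 fold change, LKO over control, of each factor in the TMM-scaled fit and in the 10 fits that each leave out 1 library. Foxa2 turned to -0.11 without LKO 2, Nr1i2 to -0.00 without LKO 4, and Onecut1 moved between -0.88 (without LKO 2) and -0.08 (without LKO 5). Points are coloured by the group of the library left out, and black lines are the fit with all libraries. With total counts or hepatocyte marker scaling Hnf4a turns positive, and with the second of these scalings so do Foxa1 and Cebpa.

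Beyond the 9, 41 other transcription factors of hepatocytes were tested, and 0 passed the edgeR test. At an unadjusted p under 0.05, 2 were higher and 12 lower in LKO, where 12.8% and 9.5% of all genes were. DESeq2 called 1 higher and 8 lower, where it called 4.16% of all genes higher and 3.63% lower. Limma voom called 1 higher and 12 lower, where it called 10% of all genes higher and 6.11% lower. The median log2 fold change was -0.24 and 34 of the 41 were negative. The median was 0.00 with total counts and 0.09 with hepatocyte marker scaling. Under these scalings the all-gene medians were 0.24 and 0.33, so the list lay below the all-gene median under each. Onecut2, a relative of Onecut1, had 140.1 to 187 CPM in LKO and 203 to 253 CPM in control, with no overlap (log2 fold change -0.42, edgeR adjusted p = 0.0999). Prox1, a homeobox factor of the liver bud, averaged 88.1 ± 11.7 CPM in LKO and 130.1 ± 24.5 CPM in control (log2 fold change -0.56, edgeR adjusted p = 0.0999). Thrb, the thyroid hormone receptor of liver, averaged 39.5 ± 6.33 CPM in LKO and 58.6 ± 10.6 CPM in control. Atf5, a factor of the stress response, lay the other way, at 287 ± 59.0 CPM in LKO and 166 ± 39.6 CPM in control (log2 fold change 0.79, edgeR adjusted p = 0.0921). Nr1h4, the bile acid receptor FXR, was the other factor whose groups were apart. It had 86.7 to 134 CPM in LKO and 154 to 161 CPM in control, and was picked out after its values were seen. The groups were apart and lower in LKO for 2 of the 41, where 2.23% of all genes were.

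**Figure D4:**
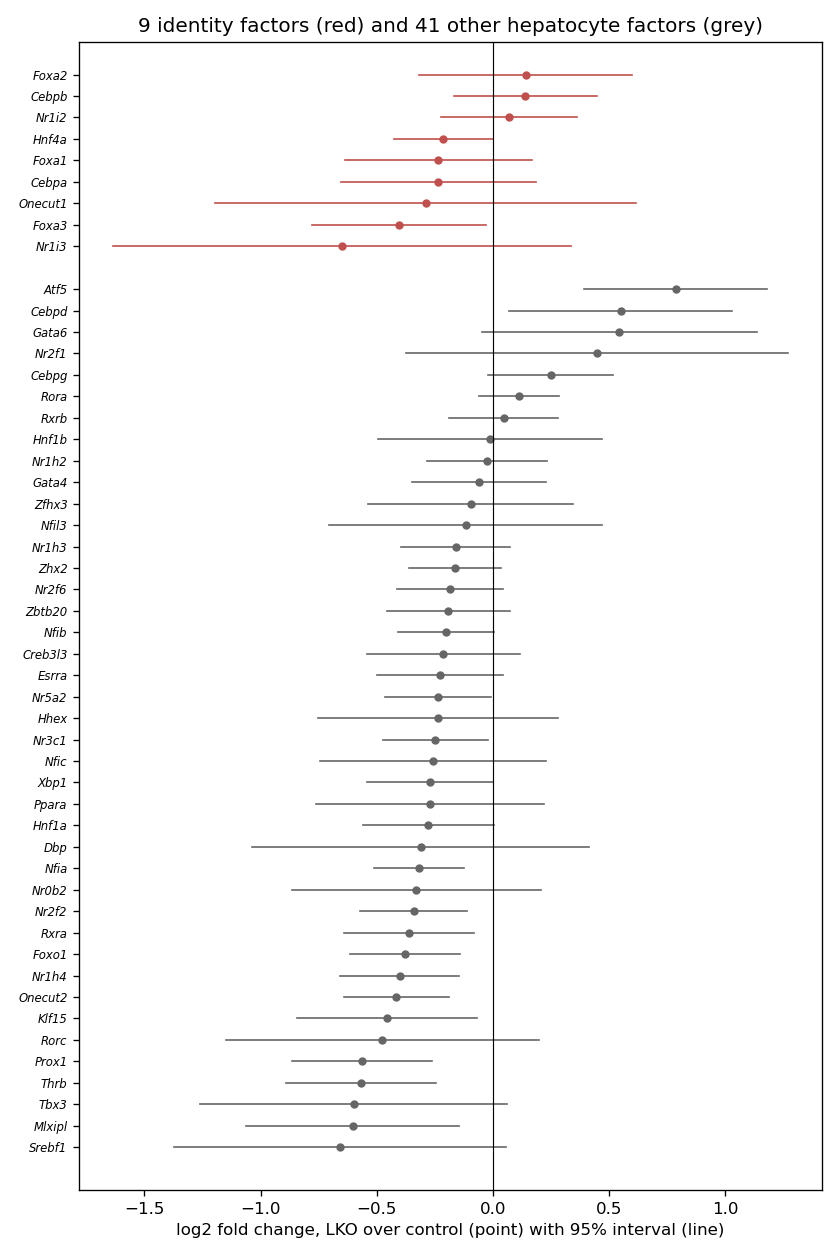
Log2 fold change, LKO over control, with 95% intervals, for the 9 identity factors and other hepatocyte transcription factors, TMM-scaled. Hnf4a sits at -0.21 and Nr1i3 at -0.65, and 0 of the 9 passed the adjusted threshold in edgeR. With total counts or hepatocyte marker scaling Hnf4a turns positive, as do Foxa1 and Cebpa with hepatocyte marker scaling.

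The known targets of each factor were listed beside it, and some genes are in several lists. The 6 lists hold 102 distinct genes tested. Of these edgeR called 0, where it called 0.0657% of all genes, and had 37 at an unadjusted p under 0.05, where 22.3% were. DESeq2 called 19, where it called 7.79% of all genes, and limma voom 32, where it called 16.2%. Medians are given with TMM scaling. With hepatocyte marker scaling they turned to 0.08 for HNF4A, 0.16 for FOXA and 0.07 for HNF6 targets. With total counts the FOXA median turned to 0.07. Each of these lay below the all-gene median under the same scaling. Hepatocyte marker scaling is set by genes that are partly in these lists, such as Alb, Ttr, Apoa1, Tat and Cps1. It brings the markers' own median to -0.01, so the turns under it are in part built in. Of 28 HNF4A targets, 25 had a negative log2 fold change (median -0.26). Among these targets 2 were higher and 8 lower at an unadjusted p under 0.05, where 12.8% and 9.5% of all genes were. F11, coagulation factor XI, averaged 37.2 ± 9.07 CPM in LKO and 76.4 ± 27.3 CPM in control (edgeR adjusted p = 0.0977). F7, coagulation factor VII, averaged 28.9 ± 8.38 CPM in LKO and 48.1 ± 13.4 CPM in control. The apolipoprotein genes Apoa4 and Apoc2 lay the other way. Apoa4 averaged 1215 ± 489 CPM in LKO and 390 ± 404 CPM in control, and Apoc2 averaged 413 ± 86.2 CPM in LKO and 286 ± 60.7 CPM in control. The median over these targets was lowest in LKO 3 (-0.95 against the control mean) and in control 4 (-0.55), the livers with the lowest hepatocyte marker sums of their groups.

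Of 14 FOXA targets tested, 10 were negative (median -0.16). Igfbp1, which encodes a binding protein of insulin-like growth factors, averaged 59.7 ± 39.7 CPM in LKO and 17.4 ± 6.67 CPM in control (edgeR adjusted p = 0.0999). Ttr, the thyroxine carrier transthyretin, averaged 1667 ± 317 CPM in LKO and 2323 ± 488 CPM in control, Afp 2.55 ± 0.624 CPM in LKO and 3.71 ± 0.478 CPM in control, and Abcb4, a phospholipid exporter of bile, 467 ± 56.0 CPM in LKO and 392 ± 50.0 CPM in control. Of 23 C/EBP targets tested, 21 were negative (median -0.46). The acute phase gene Saa1 ran from 55.6 to 93.0 CPM in LKO and from 40.5 to 2069 CPM in control, with control 3 at 542 CPM and control 5 at 2069 CPM standing above the other controls (log2 fold change -2.94, edgeR adjusted p = 0.142). Saa1 and Saa2 are close in sequence, so reads may be split between them. Saa2 ran likewise, from 36.8 to 64.7 CPM in LKO and from 21.1 to 1818 CPM in control, and Saa3 from 3.51 to 5.18 CPM in LKO and from 4.004 to 37.3 CPM in control. Cd14, the endotoxin coreceptor that macrophages also make, averaged 5.84 ± 2.58 CPM in LKO and 2.31 ± 1.59 CPM in control. Of 12 HNF6 targets, which include Hnf4a and Foxa2, 9 were negative (median -0.27). Cyp7a1, the rate-limiting enzyme of bile acid synthesis, averaged 163 ± 97.9 CPM in LKO and 347 ± 130.2 CPM in control (edgeR adjusted p = 0.181), and G6pc, glucose 6-phosphatase, averaged 182 ± 58.1 CPM in LKO and 276 ± 129 CPM in control.

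PXR targets lay on the other side. Of 26 tested, 18 had a positive log2 fold change (median 0.46). Among them 12 were higher and 0 lower at an unadjusted p under 0.05, where 12.8% and 9.5% of all genes were. In 7 of the 26 the groups did not overlap, all higher in LKO, where 1.72% of all genes were. DESeq2 called 9 of them higher, where it called 4.16% of all genes higher, and limma voom 12, where it called 10%. Cyp3a11, the main drug-metabolizing CYP3A of mouse liver, had 2132 to 3500 CPM in LKO and 553 to 1501 CPM in control (log2 fold change 1.19, edgeR adjusted p = 0.0862). Ugt1a9, a glucuronosyltransferase, had 6.17 to 15.4 CPM in LKO and 1.89 to 4.47 CPM in control (edgeR adjusted p = 0.0784). Cyp3a16 had 0.865 to 1.55 CPM in LKO and 0.371 to 0.741 CPM in control, and Cyp3a41a had 2.14 to 7.10 CPM in LKO and 0.877 to 1.87 CPM in control. These Cyp3a genes are close in sequence, and the sources used here do not say how reads were shared among them. Nr1i2 itself differed by a log2 fold change of 0.07, and its groups overlapped.

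**Figure D5:**
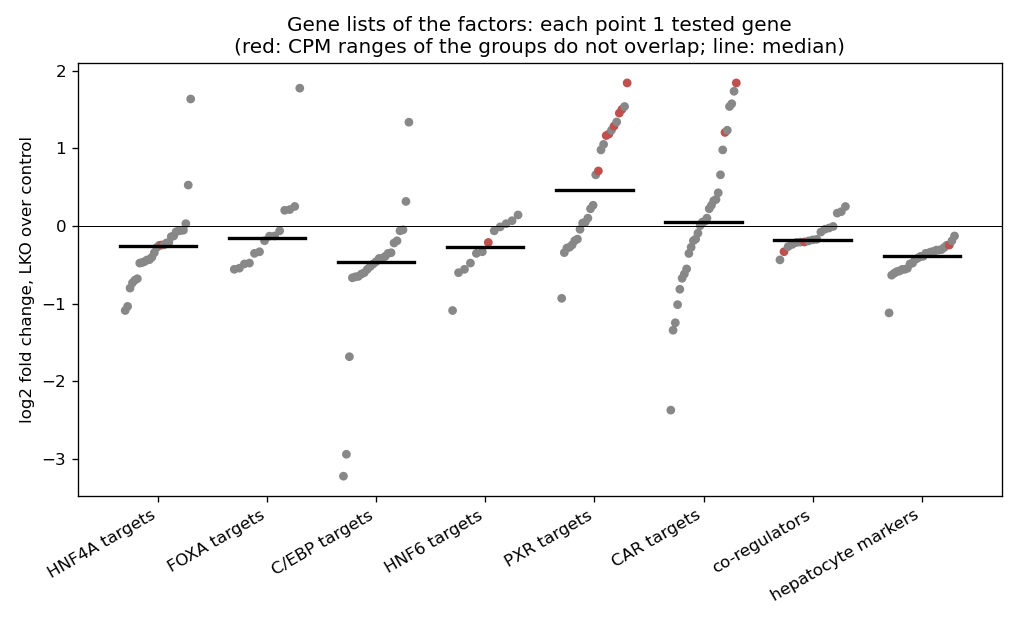
Log2 fold change, LKO over control and TMM-scaled, of the genes in each target list, with the median of each list. The PXR list has a median of 0.46, the CAR list 0.05 and the HNF4A list -0.26. Red points are genes whose groups do not overlap. With hepatocyte marker scaling the medians are 0.79, 0.37 and 0.08, so that of the HNF4A list turns. The HNF4A list shares genes with the markers that set this scaling.

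Of 30 CAR targets tested, 17 were positive and 13 negative (median 0.05). Among them 8 were higher and 3 lower at an unadjusted p under 0.05, where 12.8% and 9.5% of all genes were. Abcc4, an export pump of bile acids and drug conjugates, had 8.39 to 19.1 CPM in LKO and 4.11 to 5.71 CPM in control (edgeR adjusted p = 0.0766). Gstm3, a glutathione transferase that is also in the PXR list, had 188 to 291 CPM in LKO and 21.6 to 158 CPM in control. Gadd45b averaged 3.04 ± 1.44 CPM in LKO and 1.02 ± 0.662 CPM in control, and Cyp2c55 averaged 5.40 ± 4.44 CPM in LKO and 2.29 ± 0.438 CPM in control. Cyp2b10, the classical CAR target, was near the detection limit in both groups, at 0.439 ± 0.411 CPM in LKO and 0.333 ± 0.144 CPM in control. It was picked out after its values were seen.

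The 17 coactivators and corepressors of the nuclear receptors had a median log2 fold change of -0.18. Among them 4 were lower and 0 higher at an unadjusted p under 0.05, where 9.5% and 12.8% of all genes were. Sirt1, a deacetylase, had 12.6 to 14.8 CPM in LKO and 15.9 to 19.1 CPM in control (edgeR adjusted p = 0.0999). Ncoa1, a coactivator, had 32.6 to 40.6 CPM in LKO and 40.8 to 45.5 CPM in control, also with no overlap but with ends close together. The groups were apart and lower in LKO for 2 of the 17, where 2.23% of all genes were. Ncoa2 averaged 80.5 ± 7.83 CPM in LKO and 93.3 ± 9.10 CPM in control, and Med1 averaged 51.8 ± 2.41 CPM in LKO and 58.7 ± 5.203 CPM in control. The median of the list was 0.06 with total counts and 0.15 with hepatocyte marker scaling, where the all-gene medians were 0.24 and 0.33, so it lay below the all-gene median under each.

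Genes of fetal or dedifferentiated hepatocytes and markers of other cells lay mostly higher in LKO, though edgeR called 0 of them. DESeq2 called 2 fetal genes and 4 macrophage markers higher, where it called 4.16% of all genes higher. Limma voom called 7 and 14 higher, where it called 10%. Of 17 fetal genes tested, 16 were positive (median 0.73). Among these 10 were higher at an unadjusted p under 0.05 in edgeR, where 12.8% of all genes were. The exception was Afp, the alpha-fetoprotein of fetal liver, at 2.55 CPM in LKO and 3.71 CPM in control (log2 fold change -0.54, edgeR adjusted p = 0.152). Without control 4, 9 of 18 fetal genes tested were called higher, where 10.2% of all genes were. Sox4 averaged 10.3 ± 7.09 CPM in LKO and 3.47 ± 2.03 CPM in control, Anxa2 averaged 64.5 ± 19.2 CPM in LKO and 25.7 ± 19.1 CPM in control, Plagl1 averaged 5.08 ± 1.35 CPM in LKO and 3.06 ± 0.924 CPM in control, and Krt8 averaged 236 ± 44.5 CPM in LKO and 156 ± 49.2 CPM in control. All 26 hepatocyte markers were negative (median -0.39) and all 14 macrophage markers positive (median 1.20). All 9 cholangiocyte markers tested were positive (median 1.79), with sums of 49.6 to 480.3 CPM in LKO and 45.3 to 212 CPM in control. The fetal and cholangiocyte lists share Sox9, Spp1 and Tspan8, so they are not independent. Fetal sums were highest in the same libraries as cholangiocyte sums. They were 1166 CPM in LKO 3, 1002 CPM in LKO 5 and 871 CPM in control 4. The cells that made these transcripts were not tested. The stellate cell list (12 of 12 positive, median 0.77) summed to 590 to 1324 CPM in LKO and 405 to 910 CPM in control, and the endothelial list (12 of 12 positive, median 0.27) to 510 to 769 CPM in LKO and 507 to 583 CPM in control. Kupffer cell markers (8 of 11 positive, median 0.49) summed to 348 to 580 CPM in LKO and 295 to 402 CPM in control. Neutrophil markers (4 of 4 tested positive, 6.19 to 11.4 CPM in LKO and 3.23 to 8.09 CPM in control) and lymphocyte markers (7 of 9 positive, 4.29 to 8.99 CPM in LKO and 3.69 to 7.87 CPM in control) were scarce. The neutrophil gene Ly6g was at 0 in 3 LKO and 5 control libraries. The part of these cells in the levels of the 9 factors was not tested.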

How the data were processed

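Total RNA of 10 whole-liver samples was depleted of ribosomal RNA and sequenced single-end with a stranded kit, per the labels' protocols. The authors deposited raw counts per gene, named by NCBI Gene number; GRCm39, bcl2fastq 2.20 and DESeq2 are named in the submitters' processing notes, and the sources used here give no aligner, counter or strand setting. Symbols came from RefSeq tables (25275 of 27179 IDs matched; 0.693% of counts did not), and 0 columns were left unused. Counts were tested with edgeR 4.0.16 (R 4.3.3; filterByExpr, TMM, quasi-likelihood F test, Benjamini-Hochberg adjustment over 15226 genes, threshold 0.05). Alternatives used DESeq2 1.42.0, limma 3.58.1 (voom), other scalings and filters, a title code covariate, a replicate block and fits without 1 or more libraries. The test was checked on simulated counts. Each standard error follows from the log2 fold change divided by the square root of F.

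The 9 factors and all gene lists were chosen with earlier results of these data known. Named genes were the 9 factors, Lpcat3, the up to 4 tested genes of smallest p in each other list, the 3 genes most like each factor with a mean of at least 1 CPM, and overlapping or neighbouring genes; exceptions are marked in the text, and 2 of the likest genes are not reported here. Cell marker lists are given as counts, medians and sums.

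The labels number the replicates as separate samples without naming the animals, so a p-value reflects only how far these samples spread, which may be technical. No pair of replicates agreed within sampling noise. Deviations of same-numbered samples from their group means correlated at 0.42, 0.21, -0.23, -0.40 and -0.02, so the numbers were not taken to pair mice. Promoter windows and exon lengths are from GRCm38 tables (RefSeq GRCm38.p6, GENCODE M21); no coordinate was converted from GRCm39.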

Additional observations from a re-analysis of the deposited data

Results flagged for a closer look

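Values far from the other 4 libraries of their group were looked for in 28 groups of 5 libraries, and 5 were found. Chance flags about 1 in 20 groups.

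Foxa1 was 15.6 CPM in control 5, where the nearest control had 20.4 CPM. Foxa2 was 51.6 CPM in LKO 2, where the nearest LKO library had 30.3 CPM. Onecut1 was 84.9 CPM in LKO 2, where the nearest LKO library had 34.2 CPM. The log2 ratio of Cebpb to Cebpa was -1.12 in control 5, where the nearest control had -1.66. The log2 ratio of Foxa1 to Foxa2 was -0.15 in LKO 1, where the nearest LKO library had -0.89. The gap to the nearest library was 0.712 to 0.774 of the whole range of the group in these 5. Foxa2 and Onecut1 share the library, LKO 2.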

How the results depend on the processing

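Nr1i3 and Foxa3 kept a negative log2 fold change in all 24 alternatives, with Nr1i3 past the threshold in none of them. Foxa3 passed with limma voom (-0.52) and without control 4 and LKO 3 (-0.56), an alternative chosen after seeing the data, and 1 of the 9 factors was called under each. Hnf4a turned to 0.039 with total counts and to 0.14 with hepatocyte marker scaling, Foxa1 to 0.055 and Cebpa to 0.081 with hepatocyte marker scaling, where the median of the 9 was 0.081, against -0.0071 with total counts. With the title code as a covariate Foxa1 was 0.024, Cebpb -0.10, Onecut1 0.44 and Nr1i2 -0.26. In that fit the genotype difference comes from A54 alone, with 2 LKO libraries and 1 control. A55 holds controls only and A67 holds LKO only. Without the A54 samples Foxa2 was -0.030. Total counts and hepatocyte marker scaling moved the median of all genes to 0.24 and 0.33, though single factors shifted by unequal amounts. Relative to that median Onecut1 stood at -0.29 with TMM scaling, -0.34 with total counts and -0.40 with hepatocyte marker scaling. Under each of the 2 other scalings, 6 of the 9 lay below the all-gene median. For the title code the cause was not tested. Without the A54 samples Foxa1 was -0.53, Foxa3 -0.15 and Onecut1 -1.11.

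Genes called by edgeR, 10 in all, became 5 with hepatocyte marker scaling, 31 with no filter and 20 with at least 1 CPM in 5 libraries. They became 1186 with DESeq2, 2460 with limma voom and 2363 without control 4 and LKO 3. In the fit with the replicate block 2 genes were called and 0 of the 9 factors; only LKO 1 correlated best with the control of its own number. Genes of the other lists called, 0 of 256 tested in the edgeR fit, became 1 with no filter, 47 with DESeq2 and 96 with limma voom. They became 1 without the A54 samples and 102 without control 4 and LKO 3. The shares of all genes called in these 5 fits were 0.119%, 7.79%, 16.2%, 0.0447% and 15.6%.

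Leaving out 1 library gave 2 to 2296 genes called, the highest without control 4, with 86 without LKO 1. It gave 0 to 89 genes of the other lists, the highest without control 4, where 15% of all genes were called. It gave 0 to 0 factors called, and a median of the 9 of -0.36 to -0.13. Ranges of the log2 fold change were -0.24 to -0.17 for Hnf4a, -0.36 to -0.13 for Foxa1, -0.11 (without LKO 2) to 0.22 for Foxa2, -0.50 to -0.25 for Foxa3, -0.37 to -0.10 for Cebpa, 0.05 to 0.20 for Cebpb, -0.88 to -0.08 for Onecut1, -0.0012 (without LKO 4) to 0.14 for Nr1i2 and -0.92 to -0.39 for Nr1i3. Counts of the 9 were at least 425 in each library, where counting error is 4.85%, below the smallest coefficient of variation between libraries of a group (6.21%, Hnf4a in control).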
